A study of Mus musculus with 36 samples.

Results

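Fbxo32, Trim63, Foxo1, Foxo3, Mstn, Cdkn1a, Gadd45a and Eda2r are 8 mouse genes of muscle wasting and growth control. They were picked by name, with earlier results of these data known. They were followed over all 12 groups of an RNA sequencing series on the estrogen-related receptors (ERRs). They are 8 of 17873 genes with a value in at least 1 library. Each had a value in all 36 libraries, and all 8 passed the filter on low values, which kept 13404 genes. The tissues were extensor digitorum longus (EDL), a fast muscle, and soleus, which is rich in slow oxidative fibres. The 6 deletion groups were EDL and soleus of mice lacking ERRalpha in muscle (ERRalpha mKO), ERRbeta with ERRgamma (ERRbeta-ERRgamma dmKO) or ERRalpha with ERRgamma (ERRalpha-ERRgamma dmKO). Each was set against wild-type (WT) littermates of its own class and muscle, with 3 libraries per group. All animals were males 1 year old on the C57BL/6JBom background, fed chow at about 22 °C. The floxed alleles were removed by Cre under the human α-skeletal actin (HSA) promoter, which is active in muscle fibres, so that other cells of the muscle keep the receptors. WT animals carried floxed alleles without Cre, as the column names were read, and the direction of every change rests on that reading, hence "knockout-labelled".

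A muscle loses mass when protein breakdown outruns synthesis. FoxO transcription factors, held out of the nucleus by insulin and IGF signalling through Akt, switch on a programme of muscle atrophy that includes the ubiquitin ligases Fbxo32 (atrogin-1) and Trim63 (MuRF1), which mark muscle proteins for the proteasome. Myostatin, the product of Mstn, is a secreted TGF-β family ligand that limits muscle mass through activin receptors and Smad proteins. Cdkn1a (p21) and Gadd45a are growth arrest and stress genes that also rise in denervated or unloaded muscle, and Eda2r is the receptor for the A2 form of ectodysplasin, a TNF receptor family member that signals to noncanonical NF-κB and is a known target of p53.

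The promoters that held a match to a searched motif are shown first. Whether the motifs bear on the changes of these genes was not tested. RefSeq windows on GRCm38.p6 from 250 bases before to 50 bases after the transcription start were found for 7 of the 8 members, 8 windows in all because Cdkn1a has a pair; Fbxo32 had none. Capitals mark matches on either strand to the forkhead motif TGTTTAC, the E-box CAGCTG or a p53 response element, a tandem of half-sites with the core letters exact and at most 1 mismatch outside them. The motifs were picked after the sequences had been seen.
Trim63, chr4:134314870-134315169, plus strand: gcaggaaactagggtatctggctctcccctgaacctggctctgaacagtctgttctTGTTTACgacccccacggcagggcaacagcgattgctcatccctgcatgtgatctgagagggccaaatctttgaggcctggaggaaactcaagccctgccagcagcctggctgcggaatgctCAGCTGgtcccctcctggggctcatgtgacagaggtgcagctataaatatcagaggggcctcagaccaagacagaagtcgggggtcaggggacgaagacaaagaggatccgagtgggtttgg
Eda2r, chrX:97377160-97377459, minus strand: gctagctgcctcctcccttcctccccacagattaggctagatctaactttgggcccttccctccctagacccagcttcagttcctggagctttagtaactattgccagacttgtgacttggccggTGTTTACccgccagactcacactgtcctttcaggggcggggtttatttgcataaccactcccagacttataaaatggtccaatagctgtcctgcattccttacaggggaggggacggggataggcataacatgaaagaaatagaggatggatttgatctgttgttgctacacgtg
Cdkn1a, upstream start, chr17:29090729-29091028, plus strand: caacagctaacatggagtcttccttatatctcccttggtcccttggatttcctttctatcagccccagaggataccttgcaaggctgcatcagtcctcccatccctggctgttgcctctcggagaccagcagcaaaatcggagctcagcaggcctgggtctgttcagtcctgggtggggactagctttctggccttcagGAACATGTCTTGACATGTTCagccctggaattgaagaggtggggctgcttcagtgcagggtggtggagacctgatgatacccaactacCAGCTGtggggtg
The forkhead letters began 194 bases before the Trim63 start and 125 bases before the Eda2r start, and 3.65% of 32851 promoter windows hold them. The E-box lay 72 bases before the Trim63 start and 37 bases after the upstream Cdkn1a start, and 16.3% of windows hold one. The p53 element lay 51 bases before that Cdkn1a start, a match found in 0.0548% of windows (18). None of these motifs was in the windows of Foxo1, Foxo3, Mstn, Gadd45a or the second Cdkn1a start. The letters AAGGTCA, a half-site for ERRs present in 4.72% of windows, were in none of the 8 windows. A match describes the letters and does not show binding, and the absence of one says only that the letters are not in this window.

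Quantile normalization had removed the read totals, and 13667 to 14951 genes were detected per library. All skeletal muscle markers searched had values in every group. Of the 12, 4 were called higher and 1 lower in ERRalpha-ERRgamma EDL (changes from -1.01 to 3.55). In that class's soleus 1 was higher and 2 lower (changes from -0.92 to 1.84). These are 41.7% and 25% of the list, beside 18.1% and 12.7% of all genes. Their part in the changes of the 8 genes was not tested. The signal of Esrra (the ERRalpha gene) fell by 2.23 ± 0.12 on the log2 scale (SE, adjusted p = 3.55e-15, limma) in ERRalpha-ERRgamma knockout-labelled EDL and by 0.57 ± 0.12 (adjusted p = 0.00084) in that class's soleus. It was not called in the ERRalpha class, where it changed by -0.19 ± 0.12 in EDL and 0.33 ± 0.12 in soleus. Esrrb was not called in the ERRbeta-ERRgamma class (-0.18 ± 0.21 in EDL, 0.28 ± 0.21 in soleus), and Esrrg was higher in that class's soleus by 1.09 ± 0.15. Esrrg, a target in the ERRalpha-ERRgamma class too, was higher there as well, by 1.21 ± 0.15 in soleus (adjusted p = 9.94e-07, limma) and 0.51 ± 0.15 in EDL (adjusted p = 0.0154). Receptor genes outside a class's targets changed too. Esrrb had a change of -1.60 ± 0.21 in ERRalpha-ERRgamma EDL (adjusted p = 9.67e-07, limma). In that class's soleus its change was -0.39 ± 0.21 and was not called. Esrrg was higher in ERRalpha EDL, by 0.61 ± 0.15 (adjusted p = 0.0198, limma). These values do not check the labels of the ERRalpha and ERRbeta-ERRgamma classes, nor the ERRgamma part of the ERRalpha-ERRgamma labels. Among the targets of each class, only Esrra in the ERRalpha-ERRgamma class was called lower. A whole-gene signal need not show the loss of a floxed exon, but why the other targets did not fall was not tested. Knockout-labelled replicates 1 and 2 of ERRbeta-ERRgamma soleus stood apart, with a spread around their group mean of 0.45 and 0.41 (SD over genes, log2), against at most 0.31 in the other libraries.

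**Figure D1:**
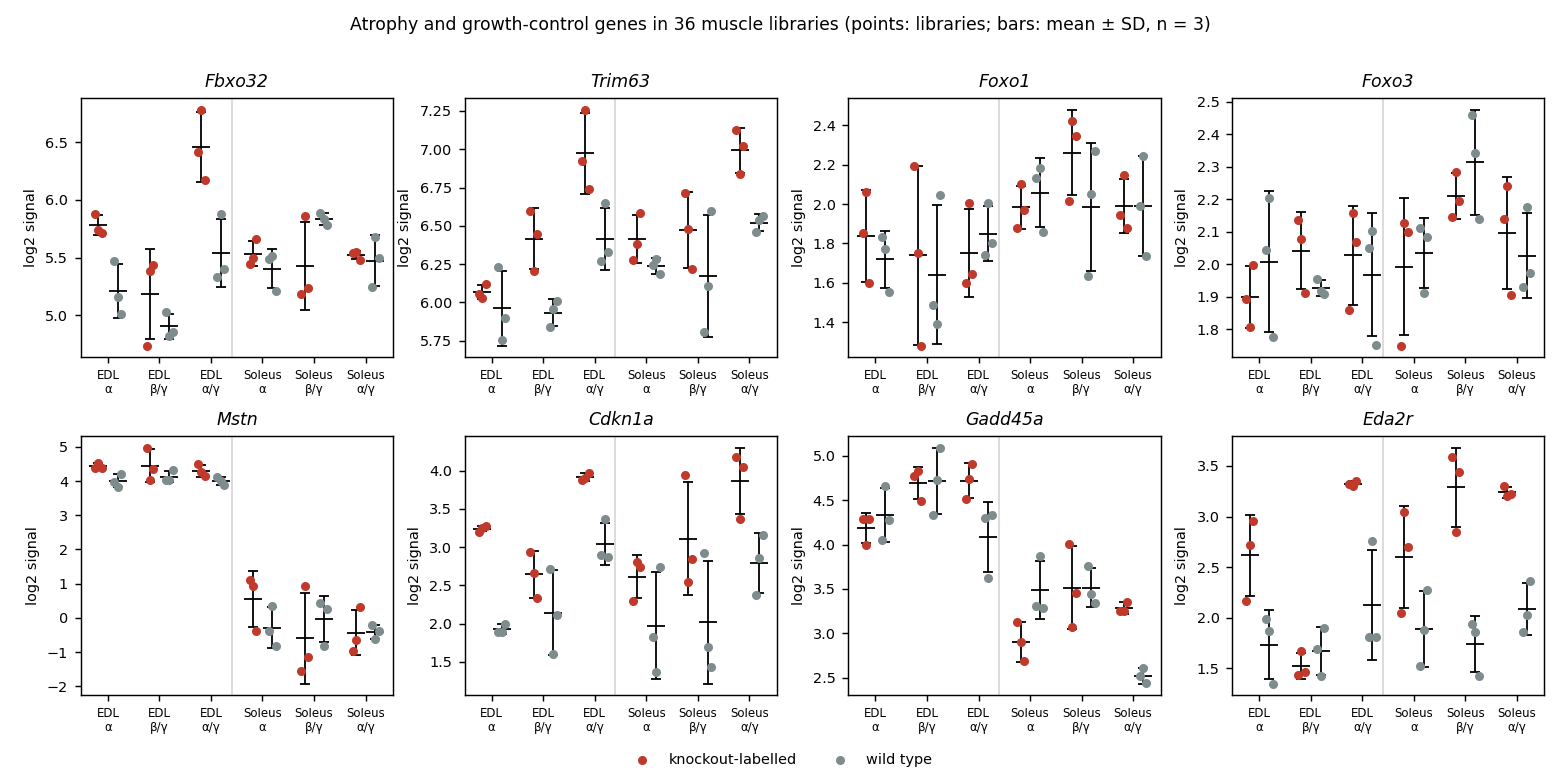
Log2 signal of the 8 genes in all 36 libraries. The horizontal axis gives muscle and deletion class, each with the knockout-labelled libraries (red) left of their wild-type libraries (grey). Bars are the mean ± SD of 3 libraries. Mstn sits between 3.83 and 4.97 in EDL and between -1.55 and 1.10 in soleus, and Eda2r lies between 3.20 and 3.35 in the 6 ERRalpha-ERRgamma knockout-labelled libraries.

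Across the 6 knockout-labelled comparisons, 10 of 48 gene-by-comparison tests were called higher at an adjusted p under 0.05 over all genes tested (limma), and 0 were called lower. Eda2r was called higher in 3 comparisons, Trim63, Cdkn1a and Gadd45a in 2 each and Fbxo32 in 1, while Foxo1, Foxo3 and Mstn were called in none. In ERRalpha-ERRgamma EDL 4 of the 8 rose (Fbxo32, Trim63, Gadd45a, Eda2r), where 11.1% of all genes were called higher, 6.95% lower and 18.1% in either direction. In ERRalpha-ERRgamma soleus 4 of 8 rose (Trim63, Cdkn1a, Gadd45a, Eda2r), against 6.84% of all genes higher, 5.86% lower and 12.7% either way. Cdkn1a was the 1 of 8 called higher in ERRalpha EDL, with 1.82% of all genes higher, 1.46% lower and 3.28% either way. Eda2r was the 1 of 8 called higher in ERRbeta-ERRgamma soleus, with 3.16% of all genes higher, 3.55% lower and 6.71% either way. In ERRbeta-ERRgamma EDL 0 of 8 were called, with 0.06% of all genes higher, 0.158% lower and 0.218% either way. In ERRalpha soleus 0 of 8 were called, with 0.464% higher, 0.247% lower and 0.71% either way. In these last 2 comparisons 953 and 1442 genes had an unadjusted p under 0.05 (limma). Because the 8 genes were chosen with earlier results of these data known, these shares describe them and do not test for an excess.

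Groups of 3 often separated completely, which has to be read beside each case of groups that did not overlap below. Among genes with a value in all 6 libraries, every knockout-labelled library was above every WT library for 26.4% of genes in ERRalpha-ERRgamma EDL, where 6 of the 8 members did so. In that class's soleus it was so for 21.7% of genes and 4 of the 8. In ERRalpha EDL it was so for 13.5% of genes and 4 of the 8. The share was 10.2% in ERRbeta-ERRgamma EDL (1 of the 8, Trim63) and 9.13% in ERRbeta-ERRgamma soleus (1 of the 8, Eda2r). In ERRalpha soleus it was 7.48% of genes and 0 of the 8, while 8.99% of genes and 1 of the 8 (Gadd45a) lay wholly below WT.

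The median change of the 8 genes was 0.60 in ERRalpha-ERRgamma EDL and 0.27 in that class's soleus, beside 0.13 and 0.11 over all genes tested. Those medians of all genes are above 0, and changes in this class are to be read against them. Centring each library on its median took 0.06 off every EDL change of the class and 0.07 off every soleus change. Over all genes, 1487 were called higher and 929 lower in ERRalpha-ERRgamma EDL as deposited, and 1009 higher and 1053 lower once centred. In that class's soleus the split was 915 higher and 785 lower as deposited, and 551 and 910 once centred. In ERRbeta-ERRgamma soleus it was 423 higher and 475 lower as deposited, and 304 and 605 once centred. The median of the 8 was 0.28 in ERRalpha EDL, 0.20 in ERRbeta-ERRgamma EDL, 0.15 in ERRalpha soleus and 0.14 in ERRbeta-ERRgamma soleus, beside 0.02, 0.03, -0.02 and 0.05 over all genes. The RNA came from whole muscle, so fewer cells of a type and less RNA per cell cannot be told apart.

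**Figure D2:**
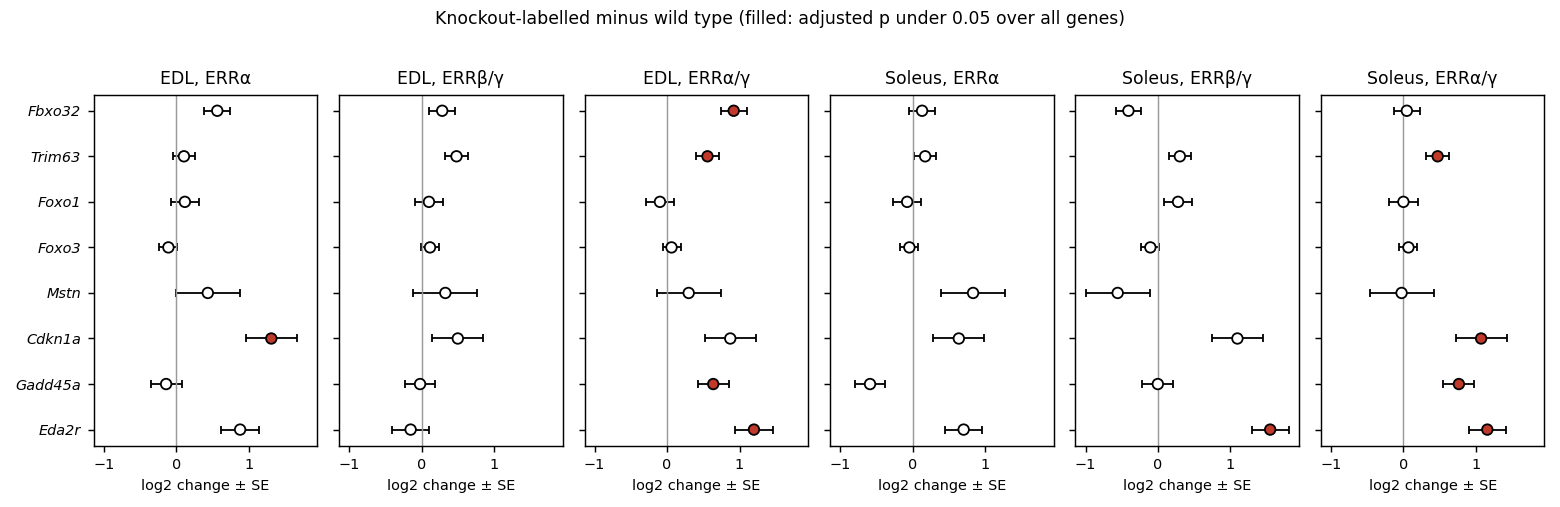
Log2 change of each gene, knockout-labelled minus wild type, with its SE, in the 6 comparisons (n = 3 libraries per group). The SE is from the fit of all 36 libraries and pools the spread of the 12 groups. Filled points passed an adjusted p of 0.05 over all genes tested. The 10 filled points all lie right of 0, 4 of them in ERRalpha-ERRgamma EDL and 4 in ERRalpha-ERRgamma soleus.

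Fbxo32, the ubiquitin ligase subunit atrogin-1, lies on chromosome 15 (58175879 to 58214932, minus strand, GRCm38). In ERRalpha-ERRgamma EDL it read 6.41, 6.78 and 6.18 (log2 signal) in the knockout-labelled libraries, against 5.34, 5.87 and 5.40 in WT. Every knockout-labelled library was above every WT library, and Fbxo32 rose by 0.92 ± 0.18 (SE, adjusted p = 0.000299, limma), a 1.89-fold difference. In ERRalpha EDL the libraries read 5.88, 5.74 and 5.72 when knockout-labelled, against 5.47, 5.16 and 5.01 in WT. These groups did not overlap, as for 13.5% of genes in this comparison, and the change of 0.57 ± 0.18 missed the threshold (adjusted p = 0.0795, limma). In ERRbeta-ERRgamma EDL, 2 of the 3 knockout-labelled libraries (4.74, 5.38 and 5.44) were above all WT libraries (5.03, 4.82 and 4.86), and the change was 0.28 ± 0.18. In soleus the changes were 0.13 ± 0.18 in the ERRalpha class, -0.41 ± 0.18 (adjusted p = 0.174, limma) in the ERRbeta-ERRgamma class and 0.05 ± 0.18 in the ERRalpha-ERRgamma class. Of the ERRbeta-ERRgamma soleus libraries, knockout-labelled replicates 1 and 3 (5.18 and 5.23) were below all WT libraries (5.89, 5.83 and 5.78), while replicate 2 (5.86) lay among them. Without that replicate 2 the change was -0.63 and was called (adjusted p = 0.0171, limma), and without replicate 1 it was -0.29 (adjusted p = 0.564). The soleus change of Fbxo32 minus its EDL change was -0.87 ± 0.25 (adjusted p = 0.0691, limma) in the ERRalpha-ERRgamma class, with a 95% interval of -1.39 to -0.36, and so did not pass the threshold over all genes. It did pass without EDL knockout-labelled replicate 3 (adjusted p = 0.0344), EDL WT replicate 2 (0.0268) or soleus WT replicate 1 (0.0497).

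Trim63, the RING finger ligase MuRF1 of the sarcomere, lies on chromosome 4 (134315120 to 134329629, plus strand), and its promoter is the first printed above. It rose in both muscles of the ERRalpha-ERRgamma class. In EDL it read 6.92, 7.26 and 6.74 in the knockout-labelled libraries, against 6.27, 6.65 and 6.33 in WT, a change of 0.56 ± 0.16 (adjusted p = 0.0111, limma). In soleus it read 7.12, 6.84 and 7.02, against 6.46, 6.54 and 6.56 in WT, a change of 0.47 ± 0.16 (adjusted p = 0.0427). The groups overlapped in neither muscle. The Trim63 call in EDL was lost without knockout-labelled replicate 2 (0.42, adjusted p = 0.0995) or WT replicate 1 (0.49, adjusted p = 0.0599). The call in soleus was lost on centred libraries (0.40, adjusted p = 0.122) and when any library but knockout-labelled replicate 2 was left out (0.41 to 0.49, adjusted p = 0.0785 to 0.165). In ERRbeta-ERRgamma EDL the knockout-labelled libraries of Trim63 (6.60, 6.20 and 6.44) were again all above WT (5.84, 5.96 and 6.01), with a change of 0.48 ± 0.16 that was not called (adjusted p = 0.33, limma). The remaining changes were 0.11 ± 0.16 in ERRalpha EDL, 0.17 ± 0.16 in ERRalpha soleus and 0.30 ± 0.16 in ERRbeta-ERRgamma soleus, where the libraries overlapped.

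Foxo1 and Foxo3, the forkhead factors that act on the ligase genes, were not called in any knockout-labelled comparison. Foxo1, on chromosome 3 (52268336 to 52353221, plus strand), had changes from -0.10 to 0.28, and Foxo3, on chromosome 10 (42181841 to 42276755, minus strand), from -0.11 to 0.12. Each had 3 positive changes among 6 comparisons. In ERRalpha-ERRgamma EDL, where the ligase genes rose, Foxo1 read 1.60, 2.01 and 1.64 in the knockout-labelled libraries, against 1.74, 2.01 and 1.80 in WT. Foxo3 averaged 2.03 ± 0.15 in the knockout-labelled libraries of that comparison, against 1.97 ± 0.19 in WT (SD, n = 3 each), and over all 36 libraries it stayed between 1.75 and 2.46. The 95% interval of the ERRalpha-ERRgamma EDL change was -0.50 to 0.31 for Foxo1 and -0.19 to 0.32 for Foxo3, which leaves room for changes of those sizes. FoxO proteins are also controlled by phosphorylation and location, which RNA does not measure.

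Mstn, the ligand of the group, lies on chromosome 1 (53061640 to 53068079, plus strand) and was the member that differed most between the muscles. In WT soleus it ranged over -0.84, -0.38 and 0.43 (lowest, median and highest of 9 libraries), against 3.83, 4.02 and 4.31 in WT EDL. No soleus library overlapped an EDL library, and the soleus minus EDL difference was -4.29 ± 0.26 (adjusted p = 1.6e-14, limma), a linear ratio of 0.0512. Against WT of the same muscle, Mstn was called in 0 of 6 comparisons. Its changes in EDL were 0.44, 0.33 and 0.30 in the ERRalpha, ERRbeta-ERRgamma and ERRalpha-ERRgamma classes, each ± 0.44. That SE pools the spread of all 12 groups, soleus included. The SD of Mstn within groups ran from 0.08 to 0.48 in EDL and from 0.21 to 1.33 in soleus. In ERRalpha EDL the knockout-labelled libraries (4.40, 4.54 and 4.40) were all above WT (3.97, 3.83 and 4.22). In ERRalpha-ERRgamma EDL they were as well (4.49, 4.25 and 4.15, against 4.11, 4.01 and 3.88 in WT). In soleus, with its low level, Mstn spread widely within groups. In the ERRalpha class it read 1.10, 0.93 and -0.40 in knockout-labelled soleus, against -0.38, 0.35 and -0.84 in WT, a change of 0.84 ± 0.44 (adjusted p = 0.523, limma). In the ERRbeta-ERRgamma class it read -1.55, 0.92 and -1.15, against 0.43, -0.81 and 0.27 in WT, a change of -0.56 ± 0.44. That value depended on knockout-labelled replicate 2, without which the change was -1.31 and was called (adjusted p = 0.0198, limma), while without replicate 1 it was -0.08.

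Cdkn1a encodes the cyclin-dependent kinase inhibitor p21 and lies on chromosome 17 (29090976 to 29100727, plus strand). Over the 6 comparisons its change ran from 0.50 to 1.31, and it passed the test in ERRalpha EDL and ERRalpha-ERRgamma soleus. In ERRalpha EDL it read 3.20, 3.25 and 3.27 in the knockout-labelled libraries, against 1.90, 1.89 and 2.00 in WT. The groups did not overlap, and the change was 1.31 ± 0.35 (adjusted p = 0.0344, limma), a 2.48-fold difference. Left without any 1 of these 6 libraries, the Cdkn1a change stayed at 1.29 to 1.35 but the call was lost (adjusted p = 0.0827 to 0.101). In ERRalpha-ERRgamma soleus it read 4.18, 3.37 and 4.05, against 2.37, 2.85 and 3.16 in WT, a change of 1.07 ± 0.35 (adjusted p = 0.0422) with no overlap. This call was lost on centred libraries (1.00, adjusted p = 0.0612), and without knockout-labelled replicate 1 or 3 or WT replicate 1 or 2 (0.86 to 1.10, adjusted p = 0.0853 to 0.182).

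In ERRalpha-ERRgamma EDL, Cdkn1a read 3.87, 3.91 and 3.97 in the knockout-labelled libraries, against 2.90, 3.36 and 2.88 in WT. All knockout-labelled libraries were above WT, and the change of 0.87 ± 0.35 missed the threshold (adjusted p = 0.0889, limma) with the spread of all groups, but passed it in a fit of these 6 libraries alone (adjusted p = 0.00384). In ERRbeta-ERRgamma soleus it read 3.94, 2.54 and 2.85, against 2.93, 1.69 and 1.43 in WT, a change of 1.10 ± 0.35 (adjusted p = 0.0582). Those groups overlapped through WT replicate 1, without which the change was 1.55 and was called (adjusted p = 0.00871), as it was without knockout-labelled replicate 2 (1.38, adjusted p = 0.014). Without knockout-labelled replicate 1 it was 0.68 (adjusted p = 0.404). The changes in ERRalpha soleus (0.64 ± 0.35) and ERRbeta-ERRgamma EDL (0.50 ± 0.35) were not called, and in both the groups overlapped. The WT groups of the classes also differed in Cdkn1a: its WT mean was highest in the ERRalpha-ERRgamma class, at 3.05 in EDL and 2.79 in soleus, and lowest in the ERRalpha class, at 1.93 and 1.97.

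Gadd45a, a growth arrest and DNA damage gene on chromosome 6 (67035096 to 67037457, minus strand), was lower in WT soleus than in WT EDL. It ranged over 2.43, 3.31 and 3.87 (lowest, median and highest of 9 libraries) in WT soleus, against 3.63, 4.33 and 5.09 in WT EDL, a difference of -1.20 ± 0.12 (adjusted p = 1.61e-09, limma). It rose in both muscles of the ERRalpha-ERRgamma class and was not called elsewhere. In soleus of that class it read 3.25, 3.25 and 3.36 in the knockout-labelled libraries, against 2.52, 2.61 and 2.43 in WT, a change of 0.77 ± 0.21 (adjusted p = 0.0144, limma) with no overlap. In EDL it read 4.52, 4.74 and 4.91, against 4.29, 3.63 and 4.33 in WT, a change of 0.64 ± 0.21 (adjusted p = 0.0348), also with no overlap.

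These rises of Gadd45a were measured against low WT groups. The ERRalpha-ERRgamma WT mean was 2.52 in soleus and 4.08 in EDL, the lowest of the 3 WT groups in each muscle, and the highest was 3.51 and 4.72, in the ERRbeta-ERRgamma class. The WT soleus libraries of the other classes ran between 3.29 and 3.87. Knockout-labelled ERRalpha-ERRgamma soleus replicates 1 and 2 (3.25 each) were below all of them, and replicate 3 (3.36) lay at the lower end of that range. The Gadd45a call in soleus was lost without knockout-labelled replicate 3 (0.73, adjusted p = 0.0508, limma) or WT replicate 3 (0.72, adjusted p = 0.055). The call in EDL was lost without knockout-labelled replicate 2 (0.63, adjusted p = 0.083) or 3 (0.54, adjusted p = 0.143) or WT replicate 2 (0.41, adjusted p = 0.251), on centred libraries (0.58, adjusted p = 0.0554) and in a fit of these 6 libraries alone (adjusted p = 0.0617). In ERRalpha soleus the sign was the other way: Gadd45a read 3.13, 2.90 and 2.68 in the knockout-labelled libraries, against 3.31, 3.87 and 3.29 in WT, all below WT, with a change of -0.59 ± 0.21 that was not called (adjusted p = 0.253). The ERRalpha-ERRgamma soleus change minus the ERRalpha soleus change was 1.35 ± 0.30 (adjusted p = 0.00538, limma), called where 4.75% of genes were, and it held in every alternative run for it. The WT means of these classes in soleus, 2.52 and 3.49, lay further apart than the knockout-labelled means, 3.28 and 2.90.

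Eda2r, the ectodysplasin A2 receptor on chromosome X (97333840 to 97377216, minus strand), rose in 3 of the 6 comparisons. In ERRbeta-ERRgamma soleus it read 3.59, 2.85 and 3.44 in the knockout-labelled libraries, against 1.94, 1.86 and 1.43 in WT, and rose by 1.55 ± 0.26 (adjusted p = 0.000344, limma), a 2.93-fold difference. In ERRalpha-ERRgamma EDL it read 3.32, 3.31 and 3.35, against 1.81, 2.76 and 1.81 in WT, and rose by 1.20 ± 0.26 (adjusted p = 0.001). In ERRalpha-ERRgamma soleus it read 3.30, 3.20 and 3.22, against 1.86, 2.02 and 2.36 in WT, and rose by 1.16 ± 0.26 (adjusted p = 0.00221). In all 3 comparisons every knockout-labelled library was above every WT library, which held for 9.13%, 26.4% and 21.7% of genes in the order given. The 6 ERRalpha-ERRgamma knockout-labelled libraries lay between 3.20 and 3.35.

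Leaving out the ERRbeta-ERRgamma soleus libraries that stood apart left Eda2r called there, at 1.40 (adjusted p = 0.00466, limma) without knockout-labelled replicate 1 and 1.77 (adjusted p = 9.67e-05) without replicate 2. In a fit of those 6 libraries alone it was not called (adjusted p = 0.08). The summed leukocyte marker level ran from 4.79 to 8.19 (log2) in ERRbeta-ERRgamma knockout-labelled soleus and from 4.55 to 6.40 in WT, and the T cell marker Cd3e had no value in either group. In the ERRalpha-ERRgamma class it ran from 6.34 to 6.75 in knockout-labelled soleus and from 5.64 to 6.19 in WT. Of the leukocyte markers tested, 0 of 8 were called in any knockout-labelled comparison. All 8 had positive changes in both soleus comparisons in which Eda2r was called, from 0.84 to 2.09 (median 1.42) in the ERRbeta-ERRgamma class and from 0.22 to 1.16 (median 0.74) in the ERRalpha-ERRgamma class. In ERRalpha-ERRgamma EDL they ran from -0.44 to 1.01 (median 0.17). Their part in the Eda2r result was not tested.

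Eda2r in the ERRalpha class read 2.17, 2.72 and 2.95 in knockout-labelled EDL, against 1.98, 1.87 and 1.35 in WT. These groups did not overlap, and the change of 0.88 ± 0.26 missed the threshold (adjusted p = 0.0547, limma), which it passed on centred libraries (0.87, adjusted p = 0.049) and without knockout-labelled replicate 1 (1.11, adjusted p = 0.0325). In ERRalpha soleus it read 2.05, 3.04 and 2.70, against 1.52, 1.88 and 2.27 in WT, a change of 0.71 ± 0.26 (adjusted p = 0.258) with overlap. In ERRbeta-ERRgamma EDL it read 1.43, 1.67 and 1.46, against 1.69, 1.42 and 1.90 in WT, a change of -0.15 ± 0.26.

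The Eda2r changes were then compared between muscles and classes. The ERRbeta-ERRgamma change in soleus minus that in EDL was 1.70 ± 0.36 (adjusted p = 0.0402, limma), called where 0.21% of genes were. By their animal numbers, the soleus and EDL libraries of this class came from the same animals, and this fit took them as independent. The deviations of these pairs correlated at -0.07 to 0.32. The ERRalpha-ERRgamma change in EDL minus the ERRbeta-ERRgamma change in EDL was 1.35 ± 0.36 (adjusted p = 0.0174), called where 6.87% of genes were. The first of these calls was lost in a fit of the 12 libraries compared alone (adjusted p = 0.153) and in 10 of the 12 fits without 1 library, all but those without soleus knockout-labelled replicate 2 or soleus WT replicate 1, with values from 1.54 to 1.83 and adjusted p up to 0.14. The second was lost without ERRbeta-ERRgamma WT replicate 3 (1.24, adjusted p = 0.0547) or without ERRalpha-ERRgamma WT replicate 1 or 3 (1.19 each, adjusted p = 0.0618 and 0.0633). In the ERRalpha-ERRgamma class the Eda2r change in soleus minus that in EDL was -0.04 ± 0.36, with a 95% interval of -0.79 to 0.70.

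Of the 72 tests of a difference of changes between muscles or classes over the 8 genes, the 3 given above for Eda2r and Gadd45a were called. Over all genes the shares called in the other contrasts of this kind were, for soleus minus EDL, 0.0151% in the ERRalpha class and 2.07% in the ERRalpha-ERRgamma class. Between classes they were 4.81% (ERRalpha-ERRgamma minus ERRalpha) and 0.415% (ERRbeta-ERRgamma minus ERRalpha) in EDL, and 1.2% (ERRalpha-ERRgamma minus ERRbeta-ERRgamma) and 0.532% (ERRbeta-ERRgamma minus ERRalpha) in soleus. Fbxo32 in the ERRbeta-ERRgamma class had a soleus change minus EDL change of -0.69 ± 0.25 (adjusted p = 0.25, limma), which passed without soleus knockout-labelled replicate 2 (-0.91, adjusted p = 0.0312). Fbxo32 in EDL differed between the ERRalpha-ERRgamma and ERRbeta-ERRgamma classes by 0.64 ± 0.25 (adjusted p = 0.15). Trim63 in EDL differed between the ERRalpha-ERRgamma and ERRalpha classes by 0.45 ± 0.22 (adjusted p = 0.354). None of the corresponding tests for Foxo1, Foxo3 and Cdkn1a passed, and that of Mstn between ERRbeta-ERRgamma and ERRalpha soleus (-1.39 ± 0.63, adjusted p = 0.305) passed without soleus ERRbeta-ERRgamma knockout-labelled replicate 2 (-2.15, adjusted p = 0.0132).

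Between the WT muscles, 4 of the 8 genes differed, where 54.4% of all genes did, 30.8% higher in soleus and 23.6% lower. Mstn and Gadd45a were lower in soleus, as given above. Fbxo32 was higher in soleus by 0.35 ± 0.10 (adjusted p = 0.00462, limma), with 5.21, 5.51 and 5.89 in soleus, against 4.82, 5.16 and 5.87 in EDL (lowest, median and highest of 9 libraries). Foxo1 was higher in soleus by 0.27 ± 0.11 (adjusted p = 0.043), with 1.63, 2.05 and 2.27 in soleus, against 1.39, 1.77 and 2.04 in EDL. The libraries of the muscles overlapped for both genes, and the Foxo1 call was lost on centred libraries (0.21, adjusted p = 0.13) and without 1 library in 11 of 18 cases (adjusted p up to 0.103). Trim63 (0.21, adjusted p = 0.0544), Foxo3 (0.16, adjusted p = 0.0644), Cdkn1a (-0.11) and Eda2r (0.06) were not called. With the animal as a block, Trim63 was called higher in soleus as well (0.20, adjusted p = 0.0424).

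Over the 36 libraries, each value taken minus the mean of its muscle, Cdkn1a and Eda2r had the highest correlation of the 28 pairs of members (Pearson r = 0.81). Within groups, after each group's mean was also removed, it was 0.55. Trim63 had an r of 0.66 with Cdkn1a and 0.58 with Eda2r, and -0.03 and 0.10 within groups. Fbxo32 and Trim63 had an r of 0.49, and 0.23 within groups. The points share groups, animals and the normalization, and these values only describe them.

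**Figure D3:**
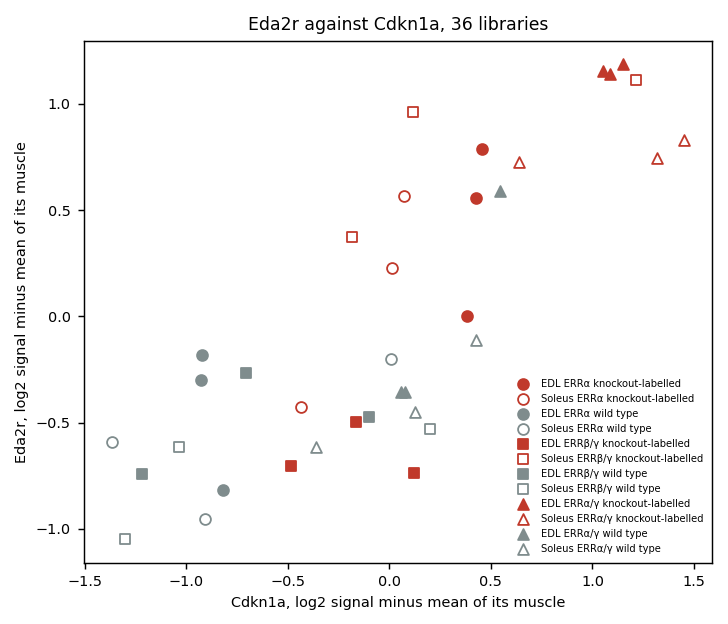
Eda2r against Cdkn1a in 36 libraries, each as log2 signal minus the mean of its muscle. Colour marks knockout-labelled (red) and wild-type (grey) libraries, the symbol the deletion class and filling the muscle. The 6 ERRalpha-ERRgamma knockout-labelled libraries (red triangles) lie at the upper right, and the correlation is 0.81.

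Among 11913 other genes with a value in every library, those most like each member by the same correlation were as follows. Eda2r was followed most closely by Pdlim3 (0.89), Anxa4 (0.89) and Plekho1 (0.87), and Cdkn1a by Cnksr1 (0.87), Mknk2 (0.85) and Trafd1 (0.84). Fbxo32 was followed by Igfn1 (0.82), Gcnt2 (0.81) and Rhpn2 (0.81), and Trim63 by Tmem140 (0.82) and Psmb6 (0.80). Mstn was followed by Gpt2 (0.73), Myh4 (0.72), the fastest myosin heavy chain, and Phka1 (0.70). Gadd45a (A230046K03Rik, Thoc1 and Appl1, 0.69 to 0.70), Foxo3 (Cdc73, Msl1 and Parg, 0.64 to 0.70) and Foxo1 (Mtrr, Smad3 and Thtpa, 0.53 to 0.60) had looser neighbours.

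The genes around the 8 in the same pathways were taken as 8 lists of 11 to 24 genes, none of which holds a member. These lists too were chosen with earlier results of these data known, so their shares do not test for an excess. Their counts are to be read beside the share of all genes called either way. It was 18.1% in ERRalpha-ERRgamma EDL, 12.7% in that class's soleus, 6.71% in ERRbeta-ERRgamma soleus and 3.28% in ERRalpha EDL. In ERRalpha-ERRgamma EDL the autophagy and lysosome list had 8 of 22 genes higher and 0 lower, with a median change of 0.23 beside 0.13 over all genes. The 3 with the lowest p were Gabarap (0.59 ± 0.07, adjusted p = 3.68e-07, limma), which binds the autophagosome membrane, Lamp1 (0.46 ± 0.07, adjusted p = 2.53e-05), of the lysosome membrane, and Sqstm1 (0.76 ± 0.13, adjusted p = 3.9e-05), the cargo receptor p62. In that class's soleus 4 of 22 were higher and 0 lower (median 0.07 beside 0.11), led by Gabarap (0.38 ± 0.07), the protease gene Ctsl (0.53 ± 0.12) and Lamp1 (0.32 ± 0.07). Elsewhere this list had Map1lc3a lower in ERRalpha EDL (-0.42 ± 0.11) and Gabarapl1 lower in ERRbeta-ERRgamma soleus (-0.51 ± 0.15).

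The 15 other ubiquitin ligase genes went both ways. In ERRalpha-ERRgamma EDL 3 were higher and 3 lower (median 0.18), with Mul1 lower (-0.84 ± 0.10, adjusted p = 4.49e-07, limma), a mitochondrial ligase, and Nedd4 (0.67 ± 0.09) and the sarcomeric Trim54 (0.55 ± 0.08) higher. In that class's soleus 3 were higher and 1 lower (median -0.03), with Nedd4 (0.42 ± 0.09) and Trim54 (0.26 ± 0.08) higher and the muscle F-box gene Fbxo40 lower (-0.73 ± 0.12, adjusted p = 3.76e-05). Nedd4 was also higher in ERRalpha EDL (0.31 ± 0.09, adjusted p = 0.0449), the 1 call of 15 there. In ERRbeta-ERRgamma soleus Trim54 was higher (0.32 ± 0.08) and Wwp1 (-0.44 ± 0.11) and Ubr2 (-0.38 ± 0.11) lower.

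The denervation response list (13 genes) had 5 higher and 1 lower in ERRalpha-ERRgamma EDL (median 0.50) and 2 higher and 1 lower in that class's soleus (median 0.27). Myog, the transcription factor myogenin, rose by 2.20 ± 0.43 in EDL (adjusted p = 0.000325, limma) and 1.44 ± 0.43 in soleus (adjusted p = 0.0234). Chrnb1, an acetylcholine receptor subunit, rose by 1.11 ± 0.18 in that EDL, 0.72 ± 0.18 in that soleus and 0.84 ± 0.18 in ERRalpha EDL, where Musk, a kinase of the neuromuscular junction, had a change of 0.91 ± 0.26 just past the threshold (adjusted p = 0.0485, limma). The Musk call was lost in 8 of 11 alternatives, among them the fits without any 1 knockout-labelled library or without WT replicate 3 (0.55, adjusted p = 0.335), and its adjusted p ran from 0.0307 to 0.335 over the 11. Dach2, a repressor upstream of Myog, fell in every class in EDL, with changes of -4.01 ± 0.47, -3.54 ± 0.42 and -4.68 ± 0.47 in the ERRalpha, ERRbeta-ERRgamma and ERRalpha-ERRgamma classes. Over the 11 alternatives these changes ran from -5.12 to -0.63, -3.70 to -0.92 and -5.61 to -0.70 in that order. Their sign and call held, but their size did not. Knockout-labelled replicate 3 had no Dach2 value in the ERRalpha and ERRalpha-ERRgamma EDL groups and was dropped from those fits. In soleus Dach2 fell in the ERRbeta-ERRgamma class (-2.34 ± 0.42), beside Chrna1 (-0.61 ± 0.18), and in the ERRalpha-ERRgamma class (-3.11 ± 0.42). Dach2 was not called in ERRalpha soleus, where it read 0.70, 0.75 and 0.40 in the knockout-labelled libraries, against 2.18, 2.07 and 2.31 in WT.

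The lists nearest to Cdkn1a, Gadd45a and Eda2r were those of p53 targets and of ectodysplasin signalling. Of 18 p53 target and growth arrest genes, 2 were higher and 0 lower in each muscle of the ERRalpha-ERRgamma class (medians 0.19 in EDL and 0.14 in soleus). These 2 are 11.1% of the list, beside 11.1% of all genes called higher in that EDL and 6.84% in that soleus. They were Ccng1 (cyclin G1; 0.45 ± 0.10 in EDL, 0.34 ± 0.10 in soleus) and Mdm2, the ligase that degrades p53 (0.32 ± 0.08 in EDL, 0.27 ± 0.08 in soleus). Ccng1 was also higher in ERRalpha EDL (0.35 ± 0.10, adjusted p = 0.0485, limma), and Zmat3 was the 1 call in ERRbeta-ERRgamma soleus (0.73 ± 0.21). The Ccng1 call in ERRalpha EDL was lost in 8 of 11 alternatives, among them the fits without any 1 of the 6 libraries. The Zmat3 call was lost in 5 of 11. In ERRalpha-ERRgamma soleus the Mdm2 call was lost in 6 of 11 and the Ccng1 call in 4. In that class's EDL the Mdm2 call was lost in 2 of 11 and the Ccng1 call in 0. Of 11 ectodysplasin receptor and noncanonical NF-κB genes, Relb, the NF-κB subunit of that branch, was the 1 called in ERRalpha-ERRgamma EDL (0.76 ± 0.26), Traf3, an adaptor that restrains the pathway, the 1 called in ERRbeta-ERRgamma soleus (0.81 ± 0.15), and 0 were called in ERRalpha-ERRgamma soleus. A call of 1 is 9.09% of this list, beside 18.1%, 6.71% and 12.7% of all genes called in the order given. The Relb call was lost in 6 of 11 alternatives and the Traf3 call in 1.

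Of 22 myostatin, activin and BMP genes, 1 (4.55%) was called in each of 3 comparisons, and it was Fst each time. Over all genes 18.1% were called in ERRalpha-ERRgamma EDL, 12.7% in that class's soleus and 6.71% in ERRbeta-ERRgamma soleus. Fst encodes follistatin, which binds and blocks myostatin and activins. It rose by 1.15 ± 0.32 in ERRalpha-ERRgamma EDL (adjusted p = 0.0101, limma), 1.02 ± 0.32 in that class's soleus (adjusted p = 0.0313) and 1.08 ± 0.32 in ERRbeta-ERRgamma soleus (adjusted p = 0.0347). The Fst call in EDL held in all 11 alternatives. In ERRalpha-ERRgamma soleus it was lost when any 1 of the 6 libraries was left out (adjusted p up to 0.099), and in ERRbeta-ERRgamma soleus without knockout-labelled replicate 3, WT replicate 1 or WT replicate 3 and in the 6 libraries alone (adjusted p up to 0.308). Of 24 insulin, IGF and mTOR genes, 1 (4.17%) or 0 were called per comparison, beside the all-gene shares above and 3.28% in ERRalpha EDL. Those called were Akt1 in ERRalpha-ERRgamma EDL (-0.37 ± 0.13), Igfbp5 in that class's soleus (1.11 ± 0.26), Eif4ebp1, an mTOR target that restrains translation, in ERRalpha EDL (-0.83 ± 0.19), and the insulin receptor gene Insr in ERRbeta-ERRgamma soleus (-0.46 ± 0.12). Of 14 FoxO partner and glucocorticoid response genes, Fkbp5 and Cebpd were higher in ERRbeta-ERRgamma soleus (1.08 ± 0.29 and 1.18 ± 0.36), where Klf15 was lower (-0.57 ± 0.16). There the Fkbp5 call was lost in 3 of 11 alternatives, the Cebpd call in 8 and the Klf15 call in 5. Fkbp5 (1.07 ± 0.29), Cebpd (1.15 ± 0.36) and the glucocorticoid receptor gene Nr3c1 (0.36 ± 0.10) were higher in ERRalpha-ERRgamma soleus, and Tsc22d3 was the 1 call in that class's EDL (0.72 ± 0.21). The calls in these 3 comparisons are 21.4%, 21.4% and 7.14% of the list, beside 6.71%, 12.7% and 18.1% of all genes in the same order. Over the 11 alternatives the list's count ran from 0 to 8, 1 to 3 and 0 to 2 in that order. In ERRalpha soleus 0 genes of any of the 8 lists were called, and in ERRbeta-ERRgamma EDL Dach2 was the 1 call.

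**Figure D4:**
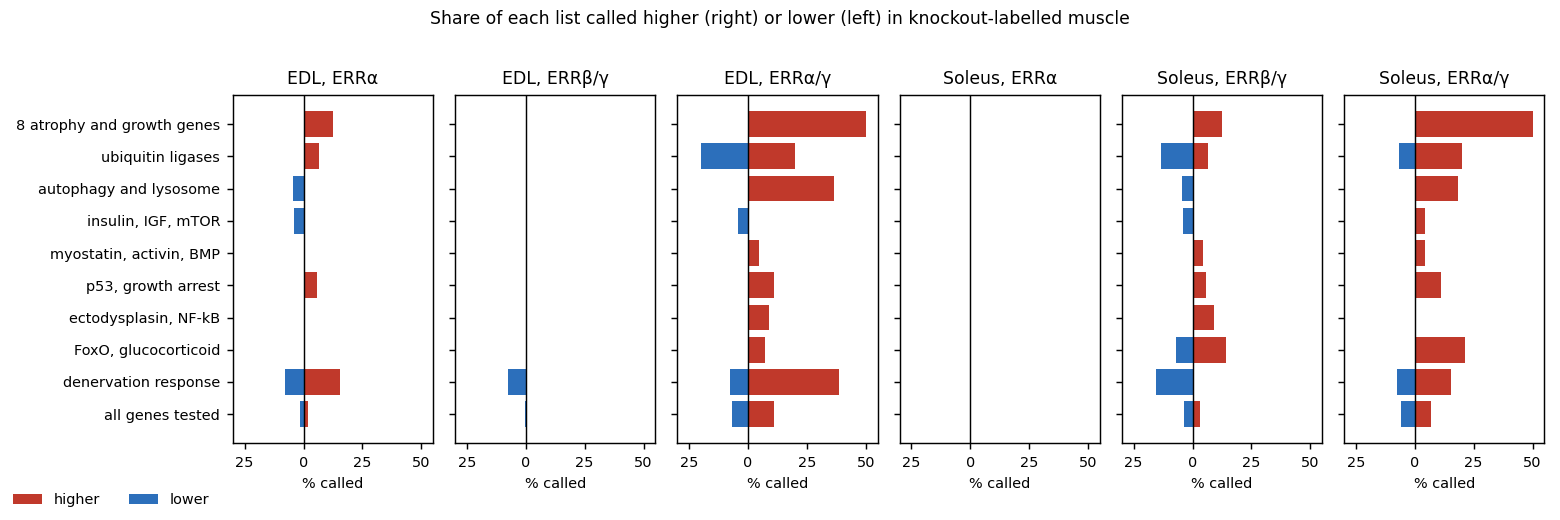
Share of each list called higher (red, right) or lower (blue, left) in the 6 comparisons, with the 8 atrophy and growth-control genes in the top row and all genes tested in the bottom row. The top row reaches 4 of 8 in ERRalpha-ERRgamma EDL and soleus, and the autophagy and lysosome row reaches 8 of 22 in ERRalpha-ERRgamma EDL.

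Markers of other cell types were read beside these results. In ERRalpha-ERRgamma EDL, 0 of 10 fibroblast, 0 of 5 satellite cell, 0 of 6 fat, 0 of 6 Schwann cell and 0 of 5 red blood cell markers were called, and 1 of 8 endothelial markers was lower (Kdr, -0.60 ± 0.17, adjusted p = 0.0114, limma). In that class's soleus 1 of 8 endothelial markers (Tie1, -0.43 ± 0.11, adjusted p = 0.00807) and 1 of 6 Schwann cell markers (Mbp, -1.77 ± 0.54, adjusted p = 0.0277) were lower, the second list with a median change of -1.17. The summed Schwann cell level ran from 4.44 to 4.97 in that knockout-labelled soleus, inside the WT range of 4.23 to 7.11. Kdr, Tie1 and Mbp are named because they were the markers called, after their values were seen. The fat markers had a median change of -1.13 in ERRalpha-ERRgamma EDL and -1.24 in ERRalpha EDL, with 0 of 6 called in each. The summed fibroblast level there ran from 8.36 to 8.76 in the knockout-labelled libraries and from 7.97 to 8.42 in WT, and in that class's soleus from 9.05 to 9.35, against 8.10 to 9.12 in WT. The summed satellite cell level ran from 4.24 to 4.55 in knockout-labelled ERRalpha-ERRgamma EDL and from 3.73 to 4.26 in WT, and in ERRalpha EDL from 4.15 to 4.31, against 3.61 to 3.65 in WT. The satellite cell sums did not overlap in ERRalpha EDL, where Cdkn1a was called. The summed red blood cell level did not overlap there either, at 6.97 to 7.54 in the knockout-labelled libraries, against 8.24 to 8.51 in WT, with 0 of 5 markers called. Their part in the changes of the 8 genes was not tested.

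Between the WT muscles, where 54.4% of all genes were called, the shares of the lists ran from 36.4% (ectodysplasin) to 90.9% (autophagy and lysosome). Of the ligase genes 7 of 15 and of the autophagy genes 12 of 22 were lower in soleus and 3 and 8 higher, with Wwp1 (-0.76 ± 0.07) lower and Fbxo30 (0.65 ± 0.07), Lamp2 (0.81 ± 0.05) and Gabarapl1 (1.38 ± 0.09) higher. The p53 list had 8 of 18 lower and 2 higher in soleus, 55.6% in all and near the share of all genes, with Ccng1 (-0.81 ± 0.06) and Mdm2 (-0.45 ± 0.05) lower. The myostatin list had 9 of 22 lower and 6 higher, with the activin receptor gene Acvr1b (-1.85 ± 0.12) and Smad4 (-0.43 ± 0.04) lower, in the muscle where Mstn itself was low. The insulin, IGF and mTOR list had 10 of 24 higher and 7 lower, with Deptor (-1.86 ± 0.11) and Rps6kb1 (-0.55 ± 0.05) lower. Among the ectodysplasin genes Tnfrsf12a (1.82 ± 0.32) and Chuk (0.56 ± 0.08) were higher, among the FoxO partners Tsc22d3 (-1.48 ± 0.12) and Foxo4 (-1.01 ± 0.08) lower, and among the denervation genes Chrna1 (1.35 ± 0.11) and Musk (1.60 ± 0.15) higher in soleus.

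Exons of Fbxo32, Foxo1, Cdkn1a and Gadd45a overlap those of an annotated gene on the opposite strand (Gm15943, Gm20402, AC167363.2 and E230016M11Rik), and of the other genes given above those of Sqstm1, Lamp1, Cebpd, Ctsl, Fst, Trim54, Wwp1, Gabarapl1, Rps6kb1 and Deptor do as well. The kit keeps strand, but whether the counting used it is not given in the sources used here, so reads of such pairs may not have been told apart.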

How the data were processed

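RNA was sequenced from 36 muscle libraries in 12 groups of 3, made from 400 ng of total RNA with 10 PCR cycles per the labels' protocols. The authors deposited 1 table of quantile-normalized log2 signals for 45802 gene rows; the submitters' processing notes name Partek 6.6, GRCm38.p6 and mm10. Which aligner and counter were used, and in what unit signals stood before logs were taken, is not given in the sources used here. Base 2 was read from the values: of 18117 values above the lowest of their gene, in genes with a value in 8 to 20 libraries, 3623 lay 0.8 to 1.2 above it and 115 lay 0.4 to 0.8 above it. Depth is unknown, since normalization removed the read totals. Of the rows, 27904 held no value, and 27 named as dates were left out.

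Column names gave muscle, class and Cre status, with FXp read as floxed with Cre and FX- as floxed without it. ERRalpha EDL columns lack the class letters and were placed by an animal number they share with soleus columns. Replicate numbers follow column order and are names only. The series design calls the 3 animals of a group biological replicates.

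Genes were kept where their mean, missing values counted at the table's lowest value (-8.21), exceeded the 25th percentile (-5.24). Missing values stayed missing in the fits. Differences were tested with limma 3.58.1 (R 4.3.3) with an intensity trend and a mean for each of the 12 groups, Benjamini-Hochberg adjusted over all genes tested in a contrast and called under 0.05. Errors are SE unless said otherwise. The fit was tested on simulated data. The alternatives were no filter, missing values at the lowest value, centring on library medians, a pseudocount of 1, the compared libraries alone, each library left out, and an animal block across muscles. Of 14 same-animal pairs of muscles, 7 had deviations that correlated above 0.1 (r from -0.07 to 0.32). All 8 genes are named. Of each pathway list the called genes with the lowest p are named, up to 3 in a knockout-labelled comparison and the leading pair between WT muscles, and of each likeness search the top 3 genes, 1 of which is not reported here. The 8 genes and all lists were chosen with earlier results of these data known. Promoters are from RefSeq and gene positions from GENCODE M21.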

Additional observations from a re-analysis of the deposited data

Results flagged for a closer look

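For Eda2r, 1 library stood apart in WT EDL: ERRalpha-ERRgamma WT replicate 2 read 2.76, and its gap to the next of the 9 WT EDL libraries was 0.549 of the group's range, above the Dixon 95% limit for a group of 9. With 16 groups of 9 examined, about 1 in 20 of which chance would mark, this may be chance. Without that library the Eda2r change in ERRalpha-ERRgamma EDL was 1.51 (adjusted p = 9.59e-05, limma).

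Of 72 tests of a difference between muscles or classes, 3 passed. The Eda2r change in the ERRbeta-ERRgamma class was larger in soleus than in EDL by 1.70 ± 0.36 (adjusted p = 0.0402, limma), with all 3 knockout-labelled soleus libraries above WT. That fit took the muscles of the same animal as independent. The Eda2r change in EDL was larger in the ERRalpha-ERRgamma than in the ERRbeta-ERRgamma class by 1.35 ± 0.36 (adjusted p = 0.0174). The Gadd45a change in soleus was larger in the ERRalpha-ERRgamma than in the ERRalpha class by 1.35 ± 0.30 (adjusted p = 0.00538), with 3 of 3 knockout-labelled libraries above WT in the first class and 3 of 3 below WT in the second. Here the WT means of these classes, 2.52 and 3.49, lay further apart than the knockout-labelled means, 3.28 and 2.90.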

How the results depend on the processing

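No member change called in the fit of all libraries reversed its sign in any alternative. In fits of the compared libraries alone, the genes called numbered 201 in ERRalpha EDL, 4 in ERRbeta-ERRgamma EDL, 2 in ERRalpha soleus and 4 in ERRbeta-ERRgamma soleus, against 436, 29, 95 and 898 with all libraries; these fits have fewer residual degrees of freedom. Of the 8 genes, 0 were called in that fit of ERRbeta-ERRgamma soleus (1 with all libraries). Centring called 2 of the 8 in ERRalpha EDL (Eda2r added to Cdkn1a) and 2 in ERRalpha-ERRgamma soleus, where no filter also called 2 (Trim63 at adjusted p = 0.0531 and Cdkn1a at 0.0545 were lost, limma), against 1 and 4 as reported. The cause of these changes was not tested.

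Leaving out 1 library gave 225 to 303 genes called in ERRalpha EDL, 11 to 25 in ERRbeta-ERRgamma EDL, 1871 to 2014 in ERRalpha-ERRgamma EDL, 25 to 73 in ERRalpha soleus, 396 to 2139 in ERRbeta-ERRgamma soleus, 1234 to 1436 in ERRalpha-ERRgamma soleus and 6803 to 7141 between WT muscles. In ERRbeta-ERRgamma soleus the lowest count came without knockout-labelled replicate 1 and the highest without replicate 2. Of the 8 genes it left 0 to 1 called in ERRalpha EDL, 0 in ERRbeta-ERRgamma EDL and ERRalpha soleus, 2 to 4 in ERRalpha-ERRgamma EDL, 1 to 4 in each of the other soleus comparisons and 3 to 6 between WT muscles. The 4 called in ERRbeta-ERRgamma soleus without knockout-labelled replicate 2 were Fbxo32 and Mstn lower and Cdkn1a and Eda2r higher.

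Of 52 calls of pathway genes named in the knockout-labelled comparisons, 21 held in all 11 alternatives of each, 31 were lost in at least 1, and 0 reversed (limma). Those that held were Chrnb1 and Dach2 of 7 in ERRalpha EDL, Dach2 (the 1 call) in ERRbeta-ERRgamma EDL, and Ccng1, Chrnb1, Dach2, Fst, Gabarap, Lamp1, Mul1, Myog, Nedd4, Sqstm1 and Trim54 of 15 in ERRalpha-ERRgamma EDL. In ERRalpha-ERRgamma soleus Ctsl, Dach2, Fbxo40, Gabarap, Igfbp5, Lamp1 and Nedd4 held of 16. In ERRbeta-ERRgamma soleus 0 of 13 held, and Dach2 and Traf3 were lost there only in the fit of the 6 libraries alone. The 8 autophagy genes called in ERRalpha-ERRgamma EDL became 6 to 9, the 6 ligase genes 4 to 6 and the 6 denervation genes 3 to 6. The 2 p53 list genes called in that EDL became 1 to 5, and in that class's soleus 0 to 2. List counts of 1 went to 0 in at least 1 alternative, except the insulin, IGF and mTOR list in ERRalpha-ERRgamma soleus (1 to 2), the myostatin list in that class's EDL (1 to 2) and the denervation list in ERRbeta-ERRgamma EDL (1).

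Fbxo32 and Eda2r in ERRalpha-ERRgamma EDL and Eda2r in that class's soleus kept their calls in every alternative run, at 0.76 to 1.09, 1.03 to 1.51 and 1.00 to 1.30. No paired analysis was possible because the columns carry no replicate number that knockout-labelled and WT libraries share; across muscles, the replicate block by animal number changed the call of Trim63 between WT muscles and called 7496 genes there, against 7218 without it. Unknown depth limits what can be said of low values, such as Mstn in soleus.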
